A study of Rattus norvegicus with 6 samples.

Results

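Anti-Müllerian hormone, the inhibins and the activins are hormones and growth factors of the ovarian follicle, and 10 genes of this system were described: those of the ligand subunits (Amh, Inha, Inhba and Inhbb), of receptors (Amhr2, Acvr2a, Acvr2b and Acvr1b) and of secreted binding proteins (Fst and Fstl3). They were chosen by name from the pathway, and all 10 had a probe among the 15154 gene symbols that could be assigned, with 12 of the 30367 probes in all. Granulosa cells of growing follicles are the source of anti-Müllerian hormone, which restrains the entry of primordial follicles into growth. The inhibin alpha subunit pairs with a beta subunit to form inhibin, while pairs of beta subunits form activin, and inhibin lowers and activin raises the secretion of follicle-stimulating hormone by the pituitary. Follistatin and the follistatin-like protein encoded by Fstl3 bind activin and keep it from its receptors.

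Ovaries of Wistar rats were collected on PND 7 after intraperitoneal injection on PNDs 3 and 5. The LPS group received 0.05 mg/kg of lipopolysaccharide from Salmonella enterica, a component of the bacterial outer membrane, and the saline group an equal volume of saline. Total RNA of whole ovaries was hybridized to 6 single-colour arrays, 3 for each group. The study took these ovaries from 5 animals of 2 litters for each group, and the sources used here do not give which animals made up an array. Arrays of a group therefore need not be independent. Whole litters had received the same treatment, so that litter and treatment cannot be told apart, and p-values measure the spread between these 6 arrays only. The question addressed is whether the transcripts of these genes differed in the ovary 2 days after the second injection. Values are the log2 of the processed spot signal minus the 75th percentile of the array, so that 0 is the level of that percentile and 1 unit is a 2-fold difference. That percentile was 2824, 5801 and 3941 on saline replicates 1 to 3 and 3956, 5025 and 6754 on LPS replicates 1 to 3. A probe's value can be compared between arrays but not with that of another probe.

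The ovarian label was borne out by the oocyte markers, since all 9 that had a probe were well above background on all 6 arrays. The summed level of these markers was 23.0, 20.2 and 34.1 on saline replicates 1 to 3 and 17.1, 47.4 and 38.8 on LPS replicates 1 to 3, in multiples of the array's 75th percentile. The probe with the highest mean signal among them was that of Zp3, which encodes a protein of the zona pellucida. Of the granulosa cell markers, 8 of 10 had a probe and 6 were well above background on every array, and the highest mean signal was that of Wnt4. Their summed level was 7.43, 8.73 and 9.26 on the saline arrays and 8.35, 11.7 and 10.3 on the LPS arrays. The granulosa genes Foxl2 and Cyp19a1 could not be matched to a probe.

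Saline replicates 2 and 3 stood apart in transcripts of the adrenal gland. The 7 adrenal cortex markers summed to 6.16, 240.0 and 309.0 on saline replicates 1 to 3 and to 5.12, 16.0 and 12.7 on the LPS arrays, and Hsd3b1 had the highest mean signal of them. On LPS replicates 2 and 3 most of the sum was that of Hsd3b1, at 3.91 and 3.58 beside 2.3 on saline replicate 1. Of the other markers, Mrap was also slightly higher on these arrays than on saline replicate 1, and the rest were lower. The defining enzyme gene of this list, Cyp11b1, was well above background on saline replicates 2 and 3, with log2 values of 5.62 and 6.05, and on no other array. The 9 adrenal medulla markers with a probe summed to 6.37, 94.7 and 57.9 on the saline arrays and to 5.98, 4.07 and 3.51 on the LPS arrays, led in mean signal by Th. The oviduct and epithelial markers set 1 array of each group apart instead. The 8 of 10 with a probe summed to 85.3, 33.3 and 43.0 on saline replicates 1 to 3 and to 85.9, 51.5 and 46.7 on LPS replicates 1 to 3, and with the highest mean signal for Krt19. Saline replicate 1 and LPS replicate 1 were thus the highest arrays. The results of the genes described are therefore also given with saline replicate 1 as the only control, which is assumed to vary like the LPS arrays, and without LPS replicate 1. Without LPS replicate 1, the LPS and the saline arrays lie in different slide rows, so that treatment and row cannot be told apart.

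**Figure D1:**
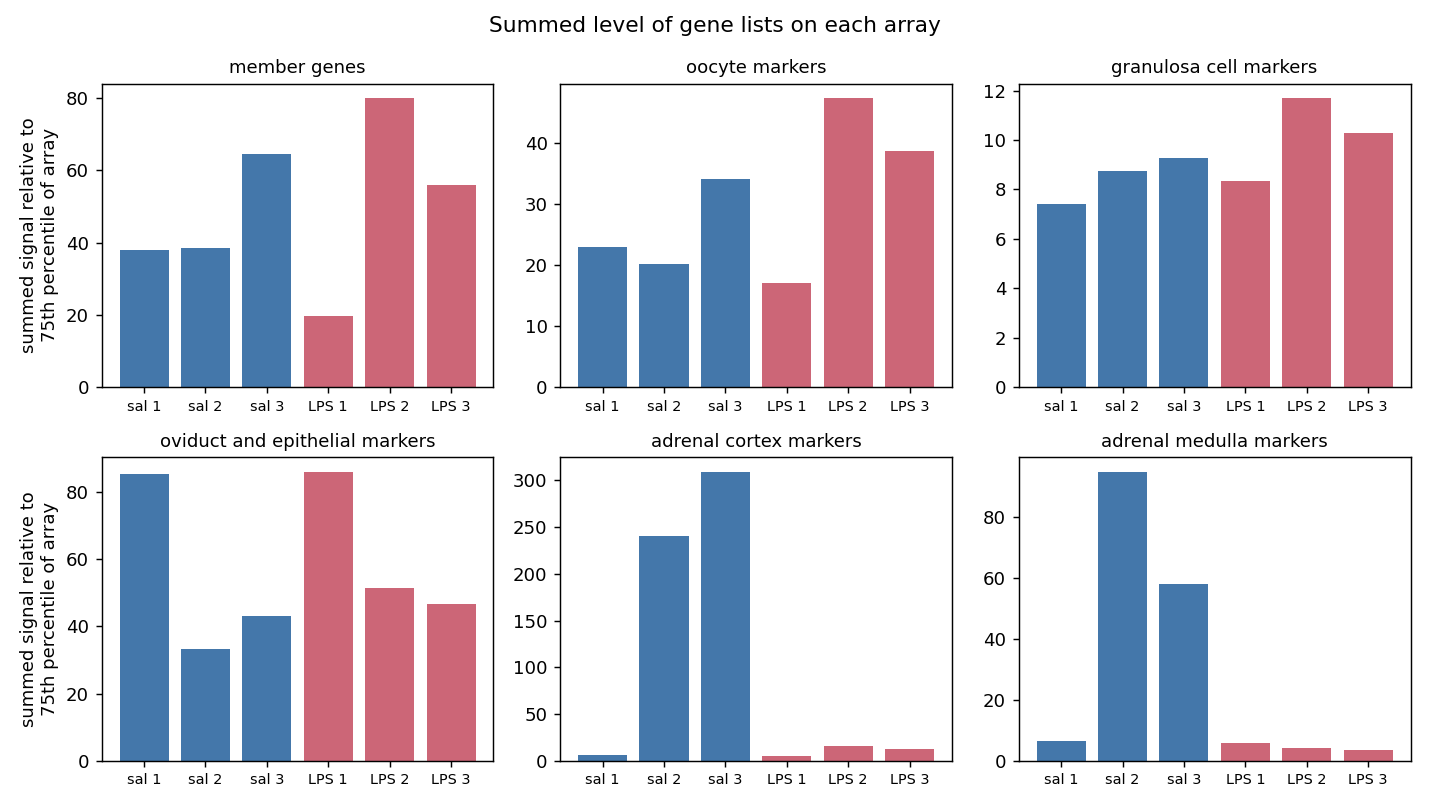
Summed signal of 6 gene lists on each array, in multiples of the array's 75th percentile (vertical axes, linear, from 0), with saline (sal) arrays in blue and LPS arrays in red. The summed level of the genes described was lowest on LPS replicate 1 (19.7) and highest on LPS replicate 2 (80.0), adrenal markers were high on saline replicates 2 and 3, and oviduct and epithelial markers on saline replicate 1 and LPS replicate 1.

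None of the 10 genes passed the criterion of a 2-fold difference at an unadjusted p under 0.05. In limma 0 were higher, beside 0.613% of all probes, and 0 were lower, beside 1.08% of all probes. At an unadjusted p under 0.05 alone, 0 of the 10 passed in limma and 0 in a per-probe test with equal variances. Of all probes 16.5% did in limma, a share that includes probes well above background on no array. After Benjamini-Hochberg adjustment in limma, 0.0% of the probes had a p under 0.05, while 290 probes did without saline replicate 1. The only saline arrays of that fit are replicates 2 and 3, those with adrenal transcripts. The 2-fold criterion was met by 186 probes that were higher and 327 that were lower, and by 1003 and 227 without normalization between arrays, where the median over all probes was 0.34. The median log2 fold change of LPS over saline was 0.02 over the 10 genes and -0.04 over all probes. Acvr2a failed to reach a signal well above background, and over the other 9 genes the median was 0.04, with 6 positive and 3 negative values, beside 0.02 over the 18093 probes that reached it on each of the 6 arrays. The adjusted p in limma lay between 0.906 and 0.998 for these 9 genes.

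**Figure D2:**
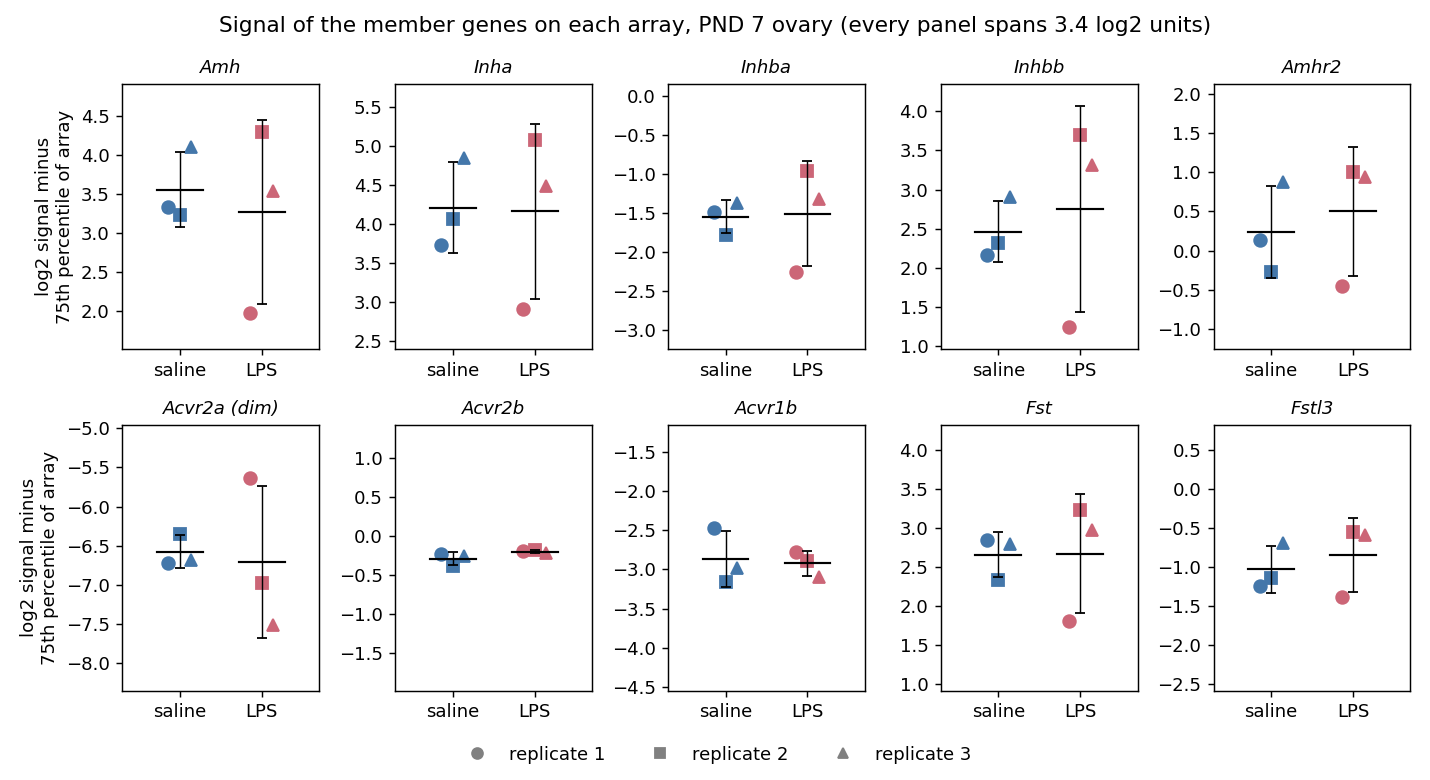
Log2 signal minus the array's 75th percentile (vertical axes) for each of the 10 genes on the 3 saline (blue) and 3 LPS (red) arrays, with the replicate number as the symbol and the mean ± SD in black; each gene is shown by its brightest probe, and Acvr2a (dim) was not well above background. LPS replicate 1 was the lowest array for 7 of the 9 other genes and LPS replicate 2 the highest for 8.

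Amh encodes anti-Müllerian hormone. Its log2 signal was 3.34, 3.23 and 4.11 on saline replicates 1 to 3 and 1.98, 4.29 and 3.54 on LPS replicates 1 to 3. The lowest and the highest value both belonged to LPS arrays, and the saline values lay between them. In processed signal the 6 values ran from 13377 on LPS replicate 1 to 80246 on LPS replicate 2. The mean was 3.56 ± 0.48 in the saline group and 3.27 ± 1.18 in the LPS group (SD, n = 3), with a log2 fold change of -0.29 (SE 0.59, 95% confidence interval -1.69 to 1.11, adjusted p in limma 0.937). That interval covers ratios of LPS to saline from 0.309 to 2.16, and so includes a 2-fold difference in either direction. The sign depended on a single array, as the log2 fold change was 0.35 (SE 0.36) without LPS replicate 1 and -0.80 without LPS replicate 2. Without normalization between arrays it was 0.08. With saline replicate 1 as the only control it was -0.08 (SE 0.94).

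Inha encodes the alpha subunit shared by both inhibins. Its log2 signal was 3.73, 4.06 and 4.85 on the saline arrays and 2.91, 5.08 and 4.49 on the LPS arrays, again with LPS replicate 1 below and LPS replicate 2 above all saline arrays. The means were 4.21 ± 0.58 and 4.16 ± 1.12 (SD, n = 3), and the log2 fold change was -0.05 (SE 0.58, 95% confidence interval -1.45 to 1.34, adjusted p in limma 0.995). The difference was therefore far smaller than the spread between arrays of a group. It was 0.57 (SE 0.38) without LPS replicate 1, 0.27 without saline replicate 3 and 0.44 (SE 0.90) with saline replicate 1 as the only control. Leaving out LPS replicate 2, LPS replicate 3 or saline replicate 1 gave -0.51, -0.22 and -0.30. Its sign also turned with the scaling, to 0.07 after quantile normalization and 0.32 without normalization between arrays. In bulk tissue the number of cells that express a gene and the RNA per cell cannot be told apart, and this holds for all of these genes.

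Inhba and Inhbb encode the beta A and beta B subunits, which are common to inhibins and activins. The log2 signal of Inhba was -1.49, -1.78 and -1.37 on the saline arrays and -2.25, -0.96 and -1.32 on the LPS arrays. Its groups overlapped, as 1 LPS array lay below and 2 lay above all saline arrays, and the log2 fold change was 0.04 (SE 0.35, adjusted p in limma 0.994). It turned negative without LPS replicate 2 (-0.24), LPS replicate 3 (-0.06) or saline replicate 2 (-0.08), was 0.41 without LPS replicate 1, and was -0.03 after quantile normalization and -0.02 (SE 0.57) with saline replicate 1 as the only control. Inhbb had 2 probes, both well above background on every array. The brighter gave 2.16, 2.32 and 2.91 on the saline arrays and 1.24, 3.70 and 3.31 on the LPS arrays. Thus LPS replicates 2 and 3 lay above and LPS replicate 1 below every saline array, and the range over the 6 arrays was the widest of all the genes described, a ratio of 5.48. The log2 fold change was 0.29 (SE 0.63, 95% confidence interval -1.22 to 1.80, adjusted p in limma 0.948). Without LPS replicate 1 it was 1.04 (SE 0.29), and Inhbb then passed the 2-fold criterion at an unadjusted p, along with 1.01% of all probes that were higher, with an adjusted p in limma of 0.196. Without LPS replicate 1 and saline replicate 1 together it was 0.89, short of the criterion. In both fits the groups lay in different slide rows. The log2 fold change was -0.19 without LPS replicate 2, and 0.59 (SE 1.05) with saline replicate 1 as the only control. The dimmer probe gave -0.47, 0.01 and 1.24 on the saline arrays and 0.01, 0.85 and 0.69 on the LPS arrays. There LPS replicate 1 was not the lowest array, in contrast to the brighter probe, and saline replicate 1 was. Its log2 fold change was 0.26 (SE 0.47, adjusted p in limma 0.926), and it was 0.51 without LPS replicate 1 and -0.11 without saline replicate 1. With saline replicate 1, its lowest array, as the only control it was 0.99 (SE 0.42, adjusted p in limma 0.864).

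Amhr2 encodes the type II receptor of anti-Müllerian hormone. Its log2 signal was 0.13, -0.28 and 0.88 on the saline arrays and -0.46, 1.01 and 0.94 on the LPS arrays. LPS replicate 1 was the lowest of the 6, and LPS replicates 2 and 3 exceeded the saline arrays, of which saline replicate 3 came closest to them. The log2 fold change was 0.25 (SE 0.48, 95% confidence interval -0.89 to 1.40, adjusted p in limma 0.930). It was 0.73 (SE 0.35) without LPS replicate 1, 0.00 without LPS replicate 2, -0.01 without saline replicate 2 and 0.36 (SE 0.68) with saline replicate 1 as the only control.

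Acvr2a and Acvr2b encode the type II receptors that bind activin, and Acvr1b the type I receptor that they recruit. On none of the 6 arrays was Acvr2a well above background, with a processed signal between 22.6 and 68.7, and no fold change is given for it. Acvr2b had 2 probes, both well above background on every array. The brighter gave -0.23, -0.38 and -0.26 on the saline arrays and -0.19, -0.18 and -0.22 on the LPS arrays, and the lowest LPS value exceeded the highest saline value. Acvr2b was the only gene of the 10 whose groups did not overlap, while 5.02% of all probes lay higher and 18.4% lower in every LPS array. Among the 18093 probes with a signal well above background throughout these shares were 5.69% and 5.75%. The difference was small, with a log2 fold change of 0.09 (SE 0.15, adjusted p in limma 0.910), and the exact two-sided permutation test gave 0.1, the smallest p that 3 arrays against 3 allow. The log2 fold change was 0.09 without LPS replicate 1 and 0.03 (SE 0.24) with saline replicate 1 as the only control. The gap between the groups was smaller than the median difference of 0.08 between the 2 spots of this probe on an array. The groups overlapped without normalization between arrays, and they overlapped for the mean of both probes of Acvr2b. The dimmer probe gave -1.46, -1.77 and -1.32 on the saline arrays and -1.73, -1.36 and -1.65 on the LPS arrays, with overlapping groups. Its log2 fold change was -0.06 (SE 0.20, adjusted p in limma 0.975), and it was 0.02 without LPS replicate 1, 0.04 without saline replicate 3 and -0.12 with saline replicate 1 as the only control.

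Acvr1b gave -2.47, -3.16 and -2.98 on the saline arrays and -2.78, -2.89 and -3.10 on the LPS arrays. All LPS values lay within the range of the saline values, and the log2 fold change was -0.06 (SE 0.23, 95% confidence interval -0.60 to 0.49, adjusted p in limma 0.982). It was 0.14 without saline replicate 1, the highest array, 0.03 without LPS replicate 3 and -0.12 without LPS replicate 1. With saline replicate 1 as the only control it was -0.45 (SE 0.27). Without normalization between arrays it was 0.32.

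Fst encodes follistatin, which binds activin almost irreversibly. Its log2 signal was 2.85, 2.33 and 2.80 on the saline arrays and 1.81, 3.23 and 2.97 on the LPS arrays. As for Inhba, Amhr2 and the brighter probe of Inhbb, LPS replicate 1 was lowest and LPS replicates 2 and 3 were above the saline arrays. The means were 2.66 ± 0.29 and 2.67 ± 0.76 (SD, n = 3), with a log2 fold change of 0.01 (SE 0.39, 95% confidence interval -0.93 to 0.95, adjusted p in limma 0.998). It was 0.44 (SE 0.24) without LPS replicate 1, -0.27 without LPS replicate 2, -0.14 without LPS replicate 3 and -0.15 without saline replicate 2. With saline replicate 1 as the only control it was -0.18 (SE 0.63).

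Fstl3 encodes a follistatin-like protein that binds activins. Its log2 signal was -1.25, -1.15 and -0.69 on the saline arrays and -1.39, -0.56 and -0.59 on the LPS arrays. The lowest array here too was LPS replicate 1, at a smaller distance from the saline arrays. The log2 fold change was 0.18 (SE 0.29, 95% confidence interval -0.51 to 0.88, adjusted p in limma 0.906). It was 0.46 (SE 0.24) without LPS replicate 1, 0.04 without LPS replicate 2, 0.05 without LPS replicate 3 and 0.07 without saline replicate 1. With saline replicate 1 as the only control it was 0.40 (SE 0.44), and after normexp background correction 0.03.

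**Figure D3:**
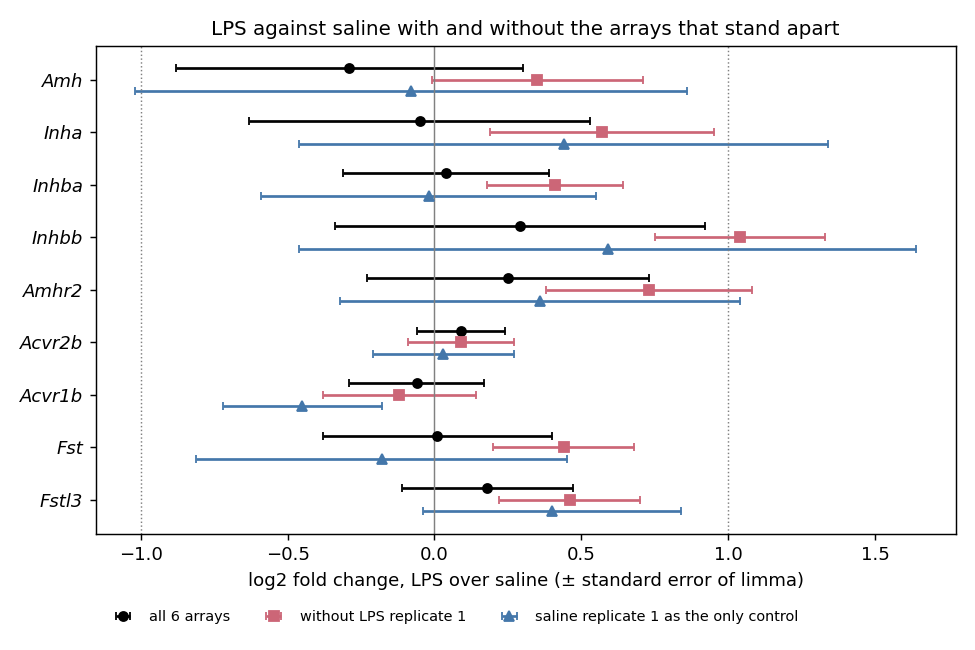
Log2 fold change of LPS over saline (horizontal axis) for the 9 genes well above background, each by its brightest probe, with bars for the standard error of limma and dotted lines at a 2-fold difference. With all 6 arrays (black circles) the values lie between -0.29 for Amh and 0.29 for Inhbb; without LPS replicate 1 (red squares) 8 of 9 are above 0, and blue triangles use saline replicate 1 as the only control.

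For each of the 9 genes except Acvr2b the difference between the groups was smaller than the SD within groups. That SD was 0.97 for the brighter probe of Inhbb and 0.70 for the dimmer, 0.90 for Amh, 0.89 for Inha, 0.72 for Amhr2, 0.57 for Fst, 0.50 for Inhba and 0.40 for Fstl3, beside a median of 0.25 over the same 18093 probes. At Inhbb, Amh and Inha it exceeded that of 98.4%, 97.8% and 97.8% of these probes. The SD of the brighter Acvr2b probe was 0.06, at or above that of 0.978% of them, that of its dimmer probe was 0.21 and that of Acvr1b 0.28. The 2 spots of a probe on an array had a median difference of 0.04 for Amh and 0.05 for Inha, far below the SD within groups. For the brighter Acvr2b probe it was 0.08, above that SD, and for Acvr1b it was 0.20.

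The spread followed the same arrays in most of the genes. Each gene is taken here by its brightest probe. LPS replicate 1 was the lowest of the 6 arrays for 7 of the 9 genes, namely Amh, Inha, Inhba, Inhbb, Amhr2, Fst and Fstl3. It was the lowest for 19.9% of the 18093 probes. LPS replicate 2 was the highest for 8 of the 9, with Acvr1b as the exception, beside 11.7% of the probes. The summed level of the 10 genes was 38.0, 38.6 and 64.4 on the saline arrays and 19.7, 80.0 and 55.9 on the LPS arrays. The sum of the oocyte markers had the same lowest and highest array. So had 4 of these 9 markers, Zp1, Zp3, Gdf9 and Nobox, while the other 5 were lowest on saline replicate 2. The sum of the granulosa cell markers was also highest on LPS replicate 2 (11.7) but lowest on saline replicate 1 (7.43), although Nr5a2 and Hsd17b1 of this list were lowest on LPS replicate 1 and highest on LPS replicate 2. The oviduct and epithelial markers, in contrast, were high on LPS replicate 1 but equally so on saline replicate 1, and their part in the values of the genes described was not tested. The adrenal markers were high on saline replicate 3, the highest saline array for Amh, Inha and Inhbb, but also on saline replicate 2, where these genes were not high, and their part was not tested either.

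Without LPS replicate 1, 8 of the 9 genes had a positive log2 fold change, with a median of 0.44 beside -0.01 over the probes well above background. Of the 9, 6 were then higher in both LPS arrays than in every saline array (Inhba, Inhbb, Amhr2, Acvr2b, Fst and Fstl3) and 0 were lower, beside 18.8% and 12.8% of the probes. The smallest adjusted p in limma among the 9 was 0.196. LPS replicate 1 was also the only LPS array in the slide row that held the 3 saline arrays, while LPS replicates 2 and 3 lay in the other row. With the slide row as a block the comparison is between LPS replicate 1 and the 3 saline arrays beside it, and 7 of the 9 values were then negative. In that fit the LPS side is 1 array, which is assumed to vary like the others, and the values repeat its distance from the saline mean. Amh (-1.58), Inha (-1.30) and Inhbb (-1.22) met the 2-fold criterion at an unadjusted p there, as did 0.217% of all probes that were lower, and the smallest adjusted p in limma among the 9 was 0.429. The slide row and the difference between LPS replicate 1 and the other LPS arrays cannot be told apart. Nor can the slide row and the treatment in the comparison without LPS replicate 1, where the groups lie in different rows.

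Other genes of the pathway were read in the same way, and 72 of the 82 listed had a probe. At the 2-fold criterion and an unadjusted p under 0.05 in limma, 2 of the 72 were higher, beside 0.613% of all probes, and 1 was lower, beside 1.08%. With all 6 arrays 0 passed after adjustment. Without saline replicate 1, Nr0b1 and Zfpm2 did, with adjusted p in limma of 0.00539 and 0.0199. That fit keeps only saline replicates 2 and 3, the arrays with adrenal transcripts, on which Nr0b1 was high. At most 1 of its saline values for Zfpm2 was well above background. The count of 3 became 6 without LPS replicate 1 or saline replicate 1, and leaving out LPS replicate 3 or saline replicate 2 gave 1. At an unadjusted p under 0.05 alone 4 were higher and 7 lower, beside 16.5% of all probes in either direction, and 4 of the 7 were well above background on no array. The median log2 fold change of the 72 was 0.14. Zfpm2, which encodes a cofactor of the transcription factor Gata4, gave -5.30, -6.24 and -5.81 on the saline arrays and -3.60, -3.98 and -3.43 on the LPS arrays. The spots of its probe on an array differed by up to 2.24, with a median difference of 0.37. The groups did not overlap, although the probe was well above background on 1 of the 3 saline arrays only, and the log2 fold change was 2.11 (SE 0.29, adjusted p in limma 0.271). As the other 2 saline values were not well above background, the size of this difference is not well measured, and no fold change is given with a saline array left out. It was 0.48 after normexp background correction and 0.23 without background correction, where it did not pass. Esr1, which encodes estrogen receptor alpha, gave -2.33, -3.77 and -3.13 on the saline arrays and -1.56, -2.49 and -2.03 on the LPS arrays. The groups overlapped between saline replicate 1 and LPS replicate 2, and the log2 fold change was 1.05 (SE 0.41, adjusted p in limma 0.287). Each LPS array was above the saline array of the same number, and with the replicate number as a block Esr1 passed with an SE of 0.17 and an adjusted p in limma of 0.167. It missed the criterion without LPS replicate 1 (0.82), LPS replicate 3 (1.05), saline replicate 2 (0.70) or saline replicate 3 (1.03), and was 0.30 with saline replicate 1 as the only control. It also missed it after normexp background correction (0.60), without background correction (0.42), after quantile normalization (1.00) and in the per-probe test. Igsf1, a membrane protein gene studied in relation to inhibin and activin signaling, gave -1.52, 1.01 and -0.61 on the saline arrays and -1.68, -1.85 and -1.99 on the LPS arrays. It was highest on saline replicate 2, an array with adrenal transcripts, and its log2 fold change of -1.47 (SE 0.60, adjusted p in limma 0.294) was -0.77 without that array and -0.32 with saline replicate 1 as the only control. It also missed the criterion without LPS replicate 1 (-1.55), LPS replicate 2 (-1.46), LPS replicate 3 (-1.39) or saline replicate 3 (-1.58), after quantile normalization (-1.48), without normalization between arrays (-1.09), with the slide row as a block (-1.31) and in the per-probe test. A second Igsf1 probe gave -2.31, 1.66 and -0.61 on the saline arrays and -2.67, -2.77 and -2.69 on the LPS arrays.

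Among the 14 other ligands of the family with a probe, 0 passed the 2-fold criterion. The largest differences were those of Bmp2 and Bmp15. Bmp2, a bone morphogenetic protein gene, gave -2.11, -1.80 and -1.68 on the saline arrays and -3.22, -2.32 and -2.38 on the LPS arrays. Every LPS array was below every saline array, with a log2 fold change of -0.78 (SE 0.29, adjusted p in limma 0.278). With the slide row as a block, where the LPS side is 1 array, it was -1.36, past the criterion. Without LPS replicate 1 it was -0.49. Bmp15, an oocyte growth factor gene, gave -3.21, -3.48 and -2.33 on the saline arrays and -3.08, -1.95 and -1.74 on the LPS arrays. Its groups overlapped at LPS replicate 1, and the log2 fold change of 0.75 (SE 0.45, adjusted p in limma 0.5) was 1.17 without that array, past the criterion. Of the other receptors and coreceptors, 12 had a probe, and beside Igsf1 the largest difference was that of Bmpr1b, a type I receptor gene. It gave -2.63, -4.27 and -3.28 on the saline arrays, 2 of which were well above background, and -2.42, -2.77 and -2.63 on the LPS arrays. The log2 fold change of 0.79 (SE 0.41, adjusted p in limma 0.410) became 1.17 without saline replicate 1, past the criterion, but was 0.35 without saline replicate 2 and 0.02 with saline replicate 1 as the only control. After normexp background correction it was 0.26.

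The Smad proteins carry the signal of these receptors to the nucleus. Of the Smad genes and their regulators 14 had a probe and 0 passed, and among those well above background the largest differences were those of Smad6, an inhibitory Smad, with 0.37 (SE 0.29), and Smad2, which acts for activin, with 0.32 (SE 0.22). The groups overlapped for both. They did not for Smad5, which acts for bone morphogenetic proteins, with 0.32 (SE 0.16). Smad6 was 0.65 without saline replicate 1, where its groups did not overlap, and 0.20 without saline replicate 3. Smad2 was 0.51 without LPS replicate 1, where its groups did not overlap, and 0.17 without LPS replicate 3. Of the extracellular antagonists and processing enzymes 10 had a probe and 0 passed. Fstl1, a follistatin-related gene, gave 1.46, 1.60 and 1.36 on the saline arrays and 1.62, 2.10 and 2.53 on the LPS arrays. All LPS arrays were above all saline arrays in this probe, with a log2 fold change of 0.61 (SE 0.26, adjusted p in limma 0.306), while its dimmer probe overlapped, with 0.43 (SE 0.24). The brighter probe gave 0.38 without LPS replicate 3 and 0.84 without LPS replicate 1. With the slide row as a block, where the LPS side is 1 array, it gave 0.14.

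Of the transcription factors that act on the Amh or inhibin genes 10 had a probe, and Zfpm2 passed. Nr0b1, which encodes a repressor of steroidogenic factor 1, gave -3.47, 1.27 and 0.75 on the saline arrays and -2.41, -2.70 and -3.09 on the LPS arrays. It was high on the 2 saline arrays with adrenal transcripts, and its log2 fold change of -2.25 (SE 1.18, adjusted p in limma 0.420) was 0.74 with saline replicate 1 as the only control and -3.74 without saline replicate 1, past the criterion. Without that array its adjusted p in limma was 0.00539. It also passed after normexp background correction (-2.06) and without background correction (-1.79). Gata4, with the highest mean signal of this list, gave 1.82, 1.87 and 2.72 on the saline arrays and 1.36, 3.40 and 2.78 on the LPS arrays. LPS replicate 1 was thus its lowest and LPS replicate 2 its highest array, as for Amh and Inha. Of the gonadotropin receptors and granulosa effectors 12 had a probe, and Esr1 passed. Fshr, the receptor gene of follicle-stimulating hormone, was well above background on 3 LPS arrays and 1 saline array, with a log2 fold change of 0.98 (SE 0.51, adjusted p in limma 0.421). As the other 2 saline values were not well above background, its size is not well measured either. After normexp background correction it was 0.13, and without background correction 0.03. Fshr met the criterion without normalization between arrays (1.35) and without saline replicate 3 (1.50), and was 0.53 without saline replicate 2.

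The named genes with the values most like those of Amh were Trim27, Wfdc10a and Dcaf15, with Pearson correlations of 0.998, 0.994 and 0.990 over the 6 arrays. For Inha they were Dhh, Fbxo21 and Tbc1d8, with 0.996, 0.994 and 0.993, and for Fst they were Ubap2, Fzr1 and Rab5b, with 0.992, 0.986 and 0.986. Each set was the best of 11548 probes over only 6 arrays, and no test was made. Dhh gave -1.97, -1.71 and -1.33 on the saline arrays and -2.51, -1.06 and -1.46 on the LPS arrays, and Fbxo21 gave 2.16, 2.32 and 2.99 on the saline arrays and 1.68, 3.07 and 2.77 on the LPS arrays.

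The remaining marker lists were also read. Of 8 macrophage markers 1 was higher at the 2-fold criterion, beside 0.613% of all probes, and the list summed to 5.48, 4.79 and 4.67 on the saline arrays and 6.32, 5.72 and 5.86 on the LPS arrays, led by Aif1. The theca and steroidogenic markers, which the adrenal gland shares, summed to 2.80 on saline replicate 1, to at least 80.6 on saline replicates 2 and 3, and to 3.23, 6.03 and 4.46 on the LPS arrays, led by Cyp11a1. The red blood cell markers, led by Hbb, summed to 41.7, 59.2 and 38.7 on the saline arrays and 39.6, 28.9 and 24.8 on the LPS arrays, and 1 of 4 was lower at the criterion, beside 1.08% of all probes. The kidney markers, led by Aqp2, stayed at or below 0.979 in sum on every array. The testis Sertoli markers, led by Ptgds, summed to 3.53, 2.01 and 2.81 on the saline arrays and 3.85, 3.55 and 2.87 on the LPS arrays. In sum none of these lists shared the lowest and the highest array of Amh, Inha and the brighter Inhbb probe. Dhh, named above for its likeness to Inha, is one of the Sertoli markers.

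Amh, Inha and the brighter probe of Inhbb had the same lowest and highest array and the widest spread. The 250 bases before the start of each of these genes are therefore shown, from RefSeq sequences of the GRCr8 build. A promoter was at hand for 9 of the 10 genes, all but Fst. Capitals mark matches on either strand to AGGTCA, the letters that steroidogenic factor 1 and related nuclear receptors bind, to GATAA preceded by A or T, and equally to GATAG, the letters bound by GATA factors, and to TGACG, part of the cyclic AMP response element. No match overlapped another. The Amh sequence lies at chr7:9559868-9560117 on the minus strand, that of Inha at chr9:84442859-84443108 on the plus strand and that of Inhbb at chr13:33089374-33089623 on the minus strand.
Amh: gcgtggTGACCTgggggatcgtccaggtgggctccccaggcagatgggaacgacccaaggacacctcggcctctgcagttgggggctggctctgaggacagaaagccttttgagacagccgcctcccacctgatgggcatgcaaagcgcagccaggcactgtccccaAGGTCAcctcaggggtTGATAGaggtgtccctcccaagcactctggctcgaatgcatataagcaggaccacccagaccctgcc
Inha: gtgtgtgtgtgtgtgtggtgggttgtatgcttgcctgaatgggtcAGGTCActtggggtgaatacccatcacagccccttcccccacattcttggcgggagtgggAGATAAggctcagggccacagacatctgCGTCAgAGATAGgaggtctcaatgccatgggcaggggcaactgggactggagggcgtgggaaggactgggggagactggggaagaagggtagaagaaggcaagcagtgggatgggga
Inhbb: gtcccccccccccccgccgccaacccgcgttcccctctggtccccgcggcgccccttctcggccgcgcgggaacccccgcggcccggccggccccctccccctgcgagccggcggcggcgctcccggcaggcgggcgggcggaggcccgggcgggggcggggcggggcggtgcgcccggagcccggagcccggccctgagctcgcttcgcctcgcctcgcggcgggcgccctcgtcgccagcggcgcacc
The Amh window held 2 matches to AGGTCA and 1 to the GATA letters, and the Inha window 1 match to AGGTCA, 2 to the GATA letters and 1 to TGACG. The Inhbb window, of which 86.8% was G or C beside a median of 51.2% over all promoters, held none of these letters. Of 33469 promoter windows of the same length, 14.1% held AGGTCA, 27.0% a GATA match and 18.2% TGACG. Among the other 6 genes with a window, Fstl3 held AGGTCA, Inhba a GATA match and Acvr2a TGACG. The matches describe these windows and were not tested against the measured values.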

How the data were processed

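For each array the authors deposited spot intensity values and flags from Agilent Feature Extraction 10.5.1.1; the processed signal has background subtracted and a surrogate value for spots too dim to measure. A deposited table of the series held the same intensity values to within 0.497%, unscaled between arrays. Control spots and spots flagged as outliers were left out, log2 values were averaged over the spots of a probe, and the 75th percentile over the probes was subtracted. Probes were named through their RefSeq accession with a GRCr8 table, which gave a symbol for 17998 of 30367 probes, while 3408 RefSeq accessions were not matched. A gene with several probes was represented by the one with the highest mean signal. Probes needed 2 unflagged arrays in each group. The groups were compared with lmFit and eBayes of limma 3.58.1 (R 4.3.3) over all probes, with Benjamini-Hochberg adjustment, and the procedure was tested on simulated data. The call rule was the 2-fold difference and p under 0.05 stated for the arrays in the study, which names no normalization for them. A probe counted as well above background on an array when the flag was set in at least 50% of its spots. The genes named were all 10 genes of the system, in each other pathway list the 2 genes with the largest difference among those well above background throughout a group and any that passed the call rule, the brightest gene of each marker list, and for Amh, Inha and Fst the 3 most correlated named genes. One gene that this rule selected is not reported here. Cyp11b1, Gata4 (as the brightest of a pathway list), Smad5 and the oocyte and granulosa cell markers named for their lowest array were singled out after their values were seen. The genes and lists were chosen with earlier results of these data known. The alternatives covered background correction, scaling, the deposited table, dim and flagged spots, a per-probe test with equal variances (for 2 groups the same as the analysis of variance that the study names for its data in general), blocks, the choice of probe and each array left out. Same-numbered arrays shared their deviations from the group means, with correlations of 0.298, 0.215 and 0.254 across probes, beside -0.271 to 0.16 for arrays of different number, and the pairing rests on these alone. The number of arrays limits the precision. Which litter and animals an array came from is not given in the sources used here.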

Additional observations from a re-analysis of the deposited data

How the results depend on the processing

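Over 20 alternatives the log2 fold changes of the 9 genes well above background kept their direction and their side of the criterion in 144 of 180 values, lay between -1.58 and 1.04, and had a smallest adjusted p of 0.123 in limma; 33 changed sign. With the replicate block (paired numbers) the median over the 10 genes was 0.02, no gene of the 10 passed and no call was lost, while 4 pathway genes passed in place of 3. The deposited table, kept outlier spots and the trended robust variance gave no sign change, with 187, 187 and 180 higher and 329, 335 and 363 lower probes in place of 186 and 327. With 1 array left out at a time, the criterion was met by 129 to 374 probes that were higher and 81 to 757 that were lower, by 0 to 290 probes after adjustment, by 0 to 1 of the 10 genes and by 1 to 6 pathway genes. The 290 were found without saline replicate 1, where both saline arrays left have adrenal transcripts. Groups did not overlap for 1 to 7 of the 10 genes, where the 7, without LPS replicate 1, include Acvr2a, dim and lower. Nor did they for 2070 to 4446 probes that were higher and 5850 to 9073 that were lower. The log2 fold changes then ranged from -0.80 to 0.35 for Amh, -0.51 to 0.57 for Inha, -0.24 to 0.41 for Inhba, -0.19 to 1.04 for Inhbb (-0.11 to 0.75 in its dimmer probe), -0.01 to 0.73 for Amhr2, -0.19 to 0.04 for the dimmer Acvr2b probe, -0.20 to 0.14 for Acvr1b, -0.27 to 0.44 for Fst, 0.04 to 0.46 for Fstl3 and 0.05 to 0.12 for the brighter Acvr2b probe. With the slide row as a block 1489 probes were higher and 66 lower, 5 passed after adjustment, and 3 of the 10 genes and 5 pathway genes met the criterion; the median over the 10 genes was -0.71, with -0.71 for Amhr2, -0.71 for Inhba, -1.22 for Inhbb (-0.25 in its dimmer probe), -0.85 for Fst, -0.37 for Fstl3, 0.08 for Acvr1b, -1.36 for Bmp2, -0.07 for Bmp15 and -0.05 for Smad2. With saline replicate 1 as the only control 494 probes were higher and 506 lower and 1 pathway gene passed, with 0.44 for Inha, -0.02 for Inhba, -0.18 for Fst, -0.19 for Smad6 and 0.74 for Nr0b1. Without LPS replicate 1 and saline replicate 1 together, an alternative chosen after seeing the data, 323 probes were higher, 1044 lower and 411 passed after adjustment; 8 pathway genes passed, and groups did not overlap for 7 of the 10 genes, 7078 probes that were higher and 11393 that were lower. These 7 include Acvr2a, which was lower and not well above background. Both saline arrays of that fit have adrenal transcripts, and its groups lie in different slide rows. With both arrays left out 0 of the 10 genes met the criterion. Inhbb was then 0.89, Amh 0.24, Inha 0.33, Acvr1b 0.07 and the dimmer Acvr2b probe 0.05. Without normalization between arrays 1003 probes were higher, groups did not overlap for 0 of the 10 genes, 3816 higher and 352 lower probes, and 6 pathway genes passed, with 0.08 for Amh, 0.32 for Inha, 0.32 for Acvr1b and 0.32 for the dimmer Acvr2b probe; Bmp15 (1.13) and Bmpr1b (1.16) were among those that passed. Quantile normalization gave 118 higher and 173 lower probes, 1806 lower without overlap, 1 pathway gene, 0.07 for Inha and -0.03 for Inhba. Normexp gave 2 higher probes, 752 higher and 2873 lower without overlap, and -0.05 for Inhba. Omitting background correction gave 0 higher and 209 lower probes, 629 higher and 1689 lower without overlap, and -0.05 for Inhba. The filter on dim probes left fewer probes, of which 188 were lower and 1073 lower without overlap. The per-probe test with equal variances called 100 higher and 48 lower probes and 1 pathway gene, and the mean of all probes of a gene left 0 of the 10 without overlap. The cause of these changes was not tested. With 3 arrays a group the intervals of Amh, Inha, Inhbb and Amhr2 include 2-fold differences, and the signal over background limits Acvr2a, Fshr and Zfpm2.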
